A study of Mus musculus with 43 samples.

Results

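The genes carried by the mitochondrial genome were measured as part of a poly A selected RNA-seq survey of 4 tissues, and 31 of the 42349 entries of the deposited expression table belonged to them. An entry was counted as mitochondrial when its gene name, or 1 of the joined names, began with the mouse prefix mt-. Together the 31 entries held all 37 genes annotated on the mouse mitochondrial chromosome, which comprised 13 protein-coding genes, 2 ribosomal RNA (rRNA) genes and 22 transfer RNA (tRNA) genes. The protein-coding genes fell into 10 entries, called mRNA entries here, the rRNA genes into 2 entries, and 20 of the tRNA genes into 19 entries. The remaining 2 tRNA genes, mt-Ti and mt-Tw, shared an entry with mt-Nd1 and mt-Nd2, and entries that join several genes cannot be split.

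The animals were female mice, either wild type (Irs1+/+, WT) or globally null (Irs1-/-, KO) for insulin receptor substrate 1, a docking protein that passes the insulin signal from its receptor into the cell. Each genotype was fed ad libitum (AL) or kept on 30% dietary restriction (DR) that was introduced at 10 weeks of age, and tissues were taken at 15 months after 12 months of DR. Brain, liver, skeletal muscle and inguinal white adipose tissue (WAT) of the 4 groups WT_AL, KO_AL, WT_DR and KO_DR gave 16 groups and 43 libraries. There were 2 libraries for WT_AL in each tissue and for WT_DR in WAT, and 3 for each other group. The deletion is present in every cell from conception on, so no group separates an effect in the tissue studied from one in the rest of the body.

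Mitochondrial DNA is transcribed from both strands as long RNAs that each span many genes, and the tRNAs that lie between most of the protein-coding genes mark where those precursors are cut. The 2 rRNAs build the mitochondrial ribosome, the tRNAs serve its translation, and all of the encoded proteins are core subunits of respiratory chain complexes I, III and IV or of the ATP synthase, complex V. Every other subunit, and the whole of complex II, is encoded in the nucleus, as are the polymerase and the factors that copy, transcribe and process the mitochondrial genome. Brain, muscle and liver depend heavily on oxidative phosphorylation, whereas white fat cells hold comparatively few mitochondria.

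The entries follow the map of the chromosome (MT, build GRCm38, gene models of GENCODE vM21), on which 28 genes lie on the plus strand and 9 on the minus strand. The sequences that bear on how the entries can be read are shown here as the GENCODE transcripts give them. The first is mt-Tm, the methionine tRNA, because its entry was the highest of all mitochondrial entries by mean level. It is shown whole from the plus strand, MT:3845-3913, with its anticodon in capitals (bases 31 to 33 from its 5′ end).
mt-Tm: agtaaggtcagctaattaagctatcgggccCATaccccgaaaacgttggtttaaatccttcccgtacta
The next tRNAs, mt-Ts2 (serine, MT:11613-11671) and mt-Tl2 (leucine, MT:11671-11741), share 1 base, in capitals, and the table joined them into a single entry.
mt-Ts2: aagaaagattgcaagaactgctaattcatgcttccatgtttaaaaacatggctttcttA
mt-Tl2: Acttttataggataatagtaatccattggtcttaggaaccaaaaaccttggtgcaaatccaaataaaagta
Directly before them lies mt-Th, the histidine tRNA (MT:11546-11612), which was called in more of the group comparisons than any other tRNA entry.
mt-Th: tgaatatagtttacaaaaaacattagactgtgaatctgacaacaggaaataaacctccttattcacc
Overlapping reading frames join other entries. The 43 bases shared by mt-Atp8 and mt-Atp6 stand in capitals within MT:7907-7989, and the 7 bases shared by mt-Nd4l and mt-Nd4 within MT:10147-10193, both with 20 bases on each side.
mt-Atp8/mt-Atp6: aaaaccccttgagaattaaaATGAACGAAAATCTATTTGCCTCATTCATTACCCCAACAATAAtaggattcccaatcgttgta
mt-Nd4l/mt-Nd4: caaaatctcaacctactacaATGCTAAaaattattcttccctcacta
On opposite strands, mt-Nd5 and mt-Nd6 share 14 bases, in capitals within MT:13532-13585 of the plus strand, yet had an entry each.
mt-Nd5/mt-Nd6: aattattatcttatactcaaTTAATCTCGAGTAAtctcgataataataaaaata
Whether reads were counted by strand is not given in the sources used here, so reads from that overlap cannot be assigned to mt-Nd5 or to mt-Nd6. For the same reason, the value of any minus-strand entry may include reads of plus-strand RNA. The tRNA genes were 59 to 75 bases long, and short reads had been discarded before alignment.

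Levels are given as FPKM (read fragments scaled to transcript length and library size), 1 value per group, with the SD taken from the 95% interval that Cuffdiff, the authors' quantification program, wrote beside it. Differences are log2 ratios of 2 groups ± SE, tested over every entry of the table (Wald, two-sided, Benjamini-Hochberg adjusted), and an entry was called at a false discovery rate (FDR) of 10%. The table holds no values of single libraries and no read totals, so the depth is unknown and the tests rest on the intervals alone. The extraction protocol counts 2 WT_AL mice and 3 in each other group, so the libraries of a group are read here as different mice and the tissues as coming from the same mice. The tests between tissues do not use that pairing. The KO_AL and WT_DR comparisons share the WT_AL group of each tissue, and are set side by side without a test between them.

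Irs1 itself went against the labels in 7 of 8 comparisons, in which its FPKM was higher in the group labelled KO than in WT on the same diet. Its levels in brain were 2.47 ± 0.841 in WT_AL, 3.49 ± 1.06 in KO_AL, 1.62 ± 0.294 in WT_DR and 4.14 ± 0.863 in KO_DR, and the difference under DR was called (1.35 ± 0.40). In WAT it was 5.37 ± 1.22 in KO_AL beside 2.47 ± 0.538 in WT_AL, and 2.58 ± 0.522 in KO_DR beside 6.56 ± 2.12 in WT_DR. With each group rescaled to the same FPKM sum, the difference turned negative in brain, liver and muscle under AL and in muscle under DR. A gene-level value does not show which part of Irs1 its reads came from, so the genotypes are named below as the libraries were labelled. Marker genes placed each group in its labelled tissue. Red blood cell markers (Hba-a1, Hba-a2, Hbb-bs, Hbb-bt and Alas2) had summed FPKM from 949.8 in muscle WT_AL to 21030.4 in WAT KO_DR. Liver markers summed to 1907 in muscle WT_DR beside 11.8 to 60.6 in the other muscle groups. In bulk tissue, fewer cells of a type and less RNA per cell cannot be told apart.

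In WT_AL mice the mitochondrial mRNAs were most abundant in skeletal muscle and least abundant in brain. Muscle held the highest FPKM in 9 of 10 mRNA entries and brain the lowest in 9 of 10. The entry that joins mt-Atp8, mt-Atp6 and mt-Co3, subunits of ATP synthase and cytochrome c oxidase, was the highest mRNA entry of each tissue except brain, at 132145 ± 143903 FPKM in muscle, 41641 ± 49815 in liver, 30749 ± 31788 in WAT and 2904 ± 2928 in brain. The copper-binding subunit of cytochrome c oxidase, mt-Co2, was at 34351 ± 13291 in muscle, 8218 ± 2952 in WAT, 6092 ± 2652 in liver and 1266 ± 514 in brain. For mt-Cytb, the only mitochondrially encoded subunit of complex III, the same order held, with 40448 ± 14992, 10052 ± 3691, 6522 ± 3654 and 1109 ± 497. Between muscle and brain, 8 of 10 mRNA entries were called higher in muscle, against 24.8% of all tested entries called in either direction. The log2 differences of the called entries ran from 3.81 ± 1.24 for mt-Co1 to 6.87 ± 2.68 for mt-Nd2,mt-Tw, and mt-Nd1,mt-Ti and mt-Nd6 were not called. In the muscle groups the SDs of mt-Nd2,mt-Tw were 172% to 600% of the FPKM. The called entry that joins mt-Atp8, mt-Atp6 and mt-Co3 had SDs above its level in both tissues. With 95% intervals required not to overlap, 4 of the 8 calls remained. In muscle 4 of 10 mRNA entries (mt-Co2, mt-Nd3, mt-Nd5 and mt-Cytb) were called higher than in liver (background in either direction 20.7%). The same 4 were called higher than in WAT (24.1%). Against brain, 6 of 10 were called higher in WAT (26.9%) and 5 of 10 in liver (21.8%). Between WAT and liver 0 of 10 passed the Wald test and 0 had an unadjusted p under 0.05, where 20.6% of all tested entries were called, so no difference between these neighbours beyond their spread was detected. No tissue difference of an mRNA entry was called when a t distribution with the few degrees of freedom of the libraries replaced the normal one.

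The rRNAs were also lowest in brain, but liver stood closer to muscle than for the mRNAs. The small-subunit rRNA, mt-Rnr1, stood at 6421 ± 1461 in muscle, 5244 ± 2914 in liver, 1362 ± 331 in WAT and 678 ± 231 in brain of WT_AL mice. The large-subunit rRNA, mt-Rnr2, stood at 6233 ± 1649, 7905 ± 7117, 1803 ± 569 and 1514 ± 644 in the same order. Muscle and liver lay within their SDs for both rRNAs, and 0 of 2 passed the test or had an unadjusted p under 0.05 (background 20.7%). Over all tissue pairs of WT_AL mice, 5 of 12 rRNA tests were called, and 0 with a t distribution. The background was 20.6% to 26.9% per pair. Relative to mt-Co2, mt-Rnr2 was 1.20 times as high in brain and 0.181 times as high in muscle. Poly A selection need not recover rRNA and mRNA alike, so the ratio describes the libraries.

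**Figure D1:**
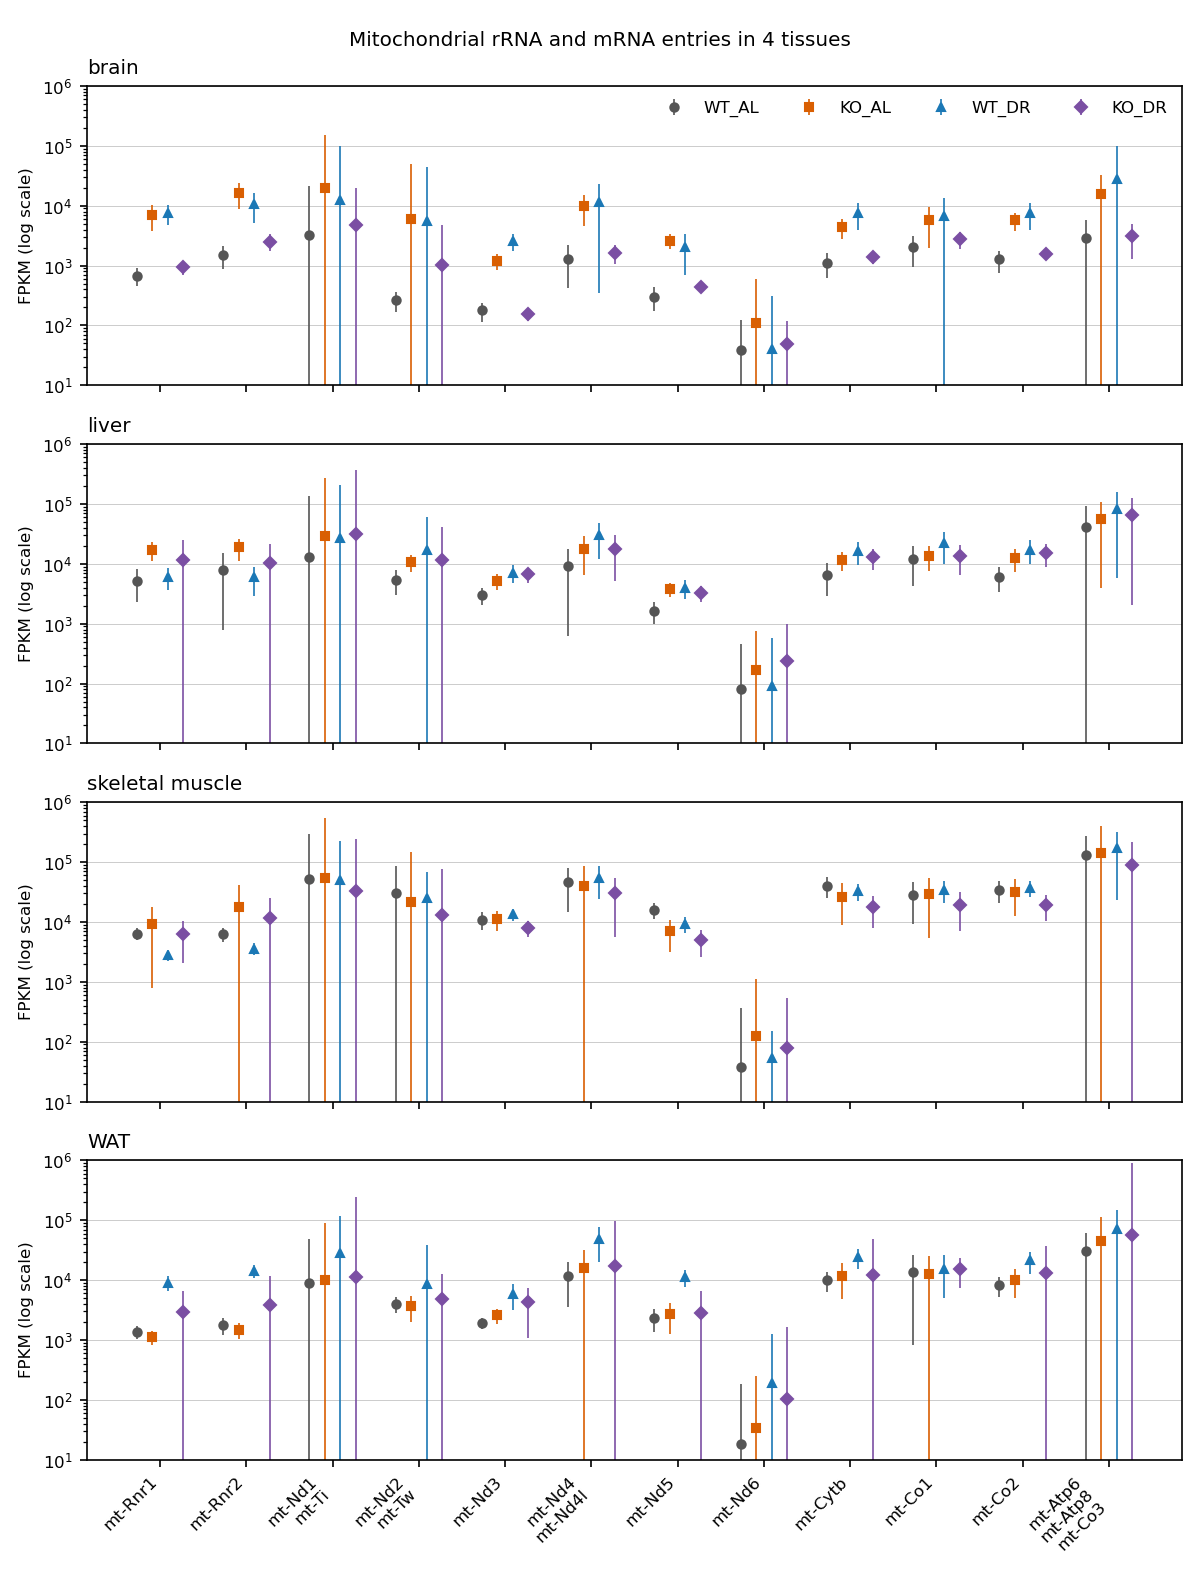
FPKM (log axis) of the mitochondrial mRNA and rRNA entries in each tissue, with 1 point per group and bars of 1 SD that are cut at the lower edge of the axis. In brain KO_AL and WT_DR lie above WT_AL and KO_DR in 9 of 10 mRNA entries and both rRNA entries, while in WAT WT_DR is highest in all 10 and both.

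In brain, mitochondrial mRNA and rRNA values were high in KO_AL and in WT_DR and low in WT_AL and KO_DR. KO_AL and WT_DR were the 2 highest groups in 9 of 10 mRNA entries and in both rRNA entries, but in 6 of 19 tRNA entries. The entry for mt-Nd3, a small membrane subunit of complex I, had FPKM of 178 ± 63.6 in WT_AL, 1187 ± 346 in KO_AL, 2565 ± 810.5 in WT_DR and 154 ± 37.2 in KO_DR. Its 95% intervals in KO_AL and in WT_DR overlapped neither of the intervals of WT_AL and KO_DR. The mt-Nd5 entry, the largest complex I subunit encoded in mitochondria, had 304 ± 131 in WT_AL, 2608 ± 731 in KO_AL, 2049 ± 1354 in WT_DR and 438 ± 82.0 in KO_DR. The groups kept the same split, although the WT_DR value was wide. At mt-Rnr1 the levels were 678 ± 231 in WT_AL, 6936 ± 3206 in KO_AL, 7624 ± 2840.0 in WT_DR and 939.8 ± 233 in KO_DR, and at mt-Rnr2 they were 1514 ± 644 in WT_AL, 16275 ± 7298 in KO_AL, 10589 ± 5526 in WT_DR and 2518 ± 793 in KO_DR. Both rRNAs thus had higher values in KO_AL and WT_DR than in either other group.

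The remaining complexes showed the same order in brain. The complex III entry mt-Cytb had FPKM of 1109 ± 497 in WT_AL, 4388 ± 1626 in KO_AL, 7622 ± 3661 in WT_DR and 1365 ± 315 in KO_DR, with the peak in WT_DR. Of the complex IV entries, mt-Co2 was at 1266 ± 514 in WT_AL, 5699 ± 1974 in KO_AL, 7557 ± 3687 in WT_DR and 1560.3 ± 339 in KO_DR, and mt-Co1, the catalytic subunit, at 2012 ± 1077 in WT_AL, 5799 ± 3847 in KO_AL, 6649.5 ± 7060.5 in WT_DR and 2790.3 ± 867 in KO_DR. The spread of mt-Co1 was wide enough for the group intervals to overlap. The joined mt-Atp6,mt-Atp8,mt-Co3 entry had 2904 ± 2928 in WT_AL, 15874 ± 17101 in KO_AL, 27594 ± 71037 in WT_DR and 3154 ± 1841 in KO_DR, and mt-Nd4,mt-Nd4l had 1305 ± 885 in WT_AL, 9749.8 ± 5168 in KO_AL, 11699 ± 11352 in WT_DR and 1613 ± 561 in KO_DR. Values of the joined mt-Nd1,mt-Ti entry, from 3227 to 19953, had SDs of 314% to 708% of the FPKM. The mt-Nd2,mt-Tw entry was at 261 ± 95.9 in WT_AL and 6011 ± 43872 in KO_AL, and its SD in KO_AL exceeded the level. These joined entries carry little information on group differences. Only mt-Nd6, the single mRNA of the minus strand, was an exception to the order, with 38.6 ± 84.1 in WT_AL, 111 ± 477 in KO_AL, 39.8 ± 275 in WT_DR and 48.3 ± 68.4 in KO_DR.

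Against WT_AL, the brain of KO_AL mice had 29 of 29 tested mitochondrial entries at a higher FPKM, and 6 were called, all higher, where 0.203% of all tested entries were called. Those were mt-Nd3 (2.74 ± 0.67), mt-Nd5 (3.10 ± 0.74), mt-Rnr1 (3.35 ± 0.83), mt-Rnr2 (3.43 ± 0.89) and the tRNA entries mt-Th and mt-Tl2,mt-Ts2. The median log2 difference was 2.54 over the 10 mRNA entries and 0.13 over all tested entries. In WT_DR brain, 9 of 29 tested entries were called against WT_AL, 6 higher and 3 lower, with 0.224% called over the table. They included mt-Nd3 (3.85 ± 0.69) and mt-Rnr1 (3.49 ± 0.73) and 7 tRNA entries, and the mRNA median was 2.77 beside -0.08. Under DR the genotype difference was opposite in sign. KO_DR brain lay below WT_DR in 9 of 10 mRNA entries (median -2.36, all entries 0.23), and mt-Nd3 (-4.05 ± 0.57) and mt-Rnr1 (-3.02 ± 0.65) were called lower among 6 called of 30 tested (background 1.16%). Within KO mice, mt-Nd3 (-2.94 ± 0.55), mt-Nd5 (-2.58 ± 0.49) and mt-Rnr1 (-2.88 ± 0.76) were called lower under DR, and 10 of 10 mRNA entries had lower values (median -2.20, all entries 0.03). In that comparison 5 of 31 entries were called, 1 higher and 4 lower, beside 0.365% of all tested entries.

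**Figure D2:**
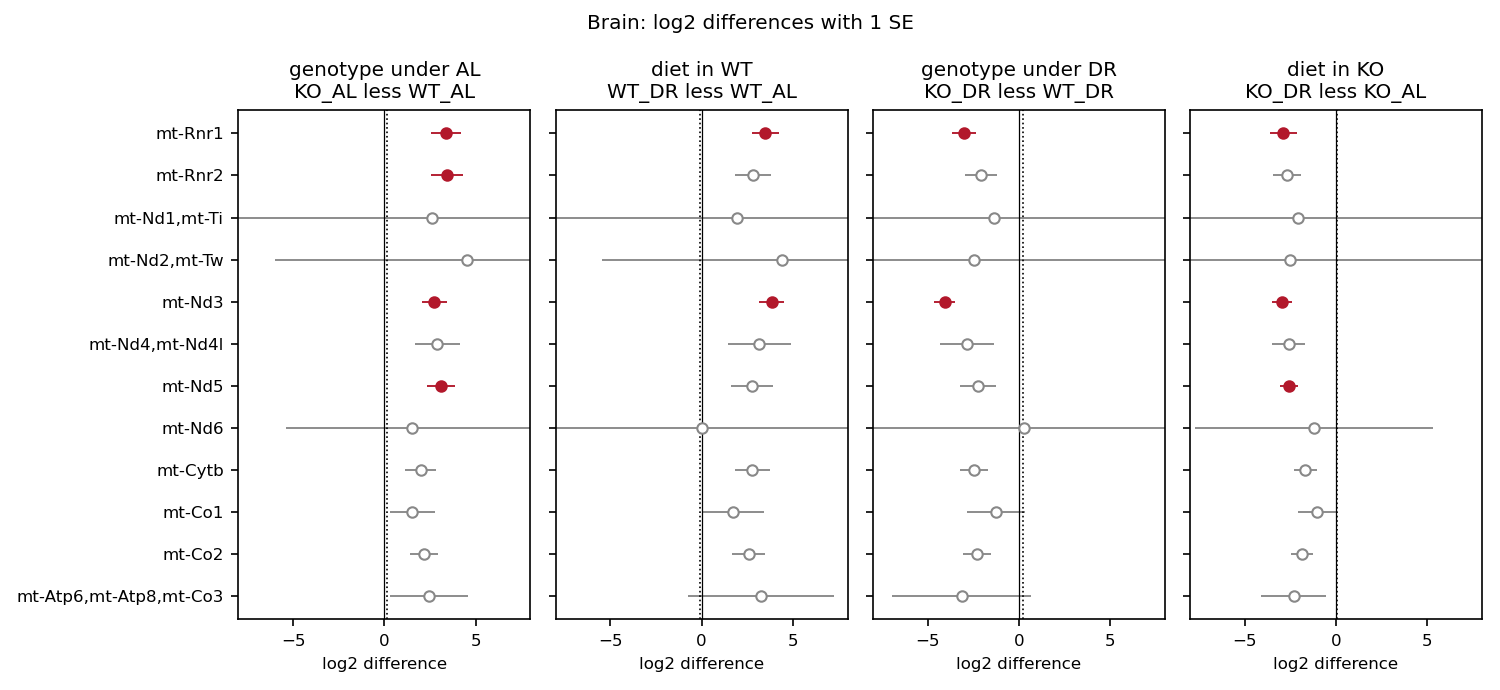
Log2 differences (horizontal axis) of the mitochondrial mRNA and rRNA entries in brain for the 4 group comparisons, with bars of 1 SE cut at the axis limits. Filled red points were called at FDR 10% and the dotted line is the median of all tested entries; mt-Nd3 and mt-Rnr1 were called in every panel.

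The genotype difference under DR was tested against that under AL as an interaction, that is (KO_DR less WT_DR) less (KO_AL less WT_AL). In brain 9 of 29 tested mitochondrial entries were called, all lower, beside 0.396% over the table. The called mRNA entries were mt-Nd3 (-6.79 ± 0.88), mt-Nd5 (-5.33 ± 1.24), mt-Cytb (-4.46 ± 1.14) and mt-Co2 (-4.45 ± 1.09). Both rRNAs were called, mt-Rnr1 at -6.37 ± 1.05 and mt-Rnr2 at -5.50 ± 1.25. The tRNA entries mt-Tm (-4.63 ± 1.14), mt-Th (-3.26 ± 0.05) and mt-Tl2,mt-Ts2 (-5.46 ± 1.36) completed the set. In the other tissues 1 of 25 entries was called in liver (mt-Th, -1.69 ± 0.06; background 0.086%), 0 of 27 in muscle (background 0.371%) and 0 of 16 in WAT (background 0.121%), and the Wald test gave an unadjusted p under 0.05 for 4, 0 and 0 of them.

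Red blood cell markers in brain summed to 1032 FPKM in WT_AL, 9907 in KO_AL, 971 in WT_DR and 3475 in KO_DR, so they were high in 1 of the 2 groups with high mitochondrial mRNA and at the WT_AL level in the other. Brain markers (Snap25, Syt1, Gfap, Mbp and Gad1) summed to 4699, 5369, 2320.4 and 4906 in the same order. The low sum in WT_DR came from Mbp (3877 in WT_AL, 1380.4 in WT_DR) and Gfap (187 and 73.6), whereas Snap25 (466 and 507), Syt1 (99.0 and 238) and Gad1 (70.3 and 122) were higher in WT_DR by value. The part of either in the result was not tested. After rescaling every group to the same FPKM sum, or to the same sum outside the mitochondrial entries, 0 mRNA and 0 rRNA entries were called for KO_AL against WT_AL in brain, whereas 4 mRNA and 2 rRNA entries were still called for the interaction. The mRNA median for KO_AL against WT_AL was then 1.83 with the first rescaling and 2.19 with the second, and that of the interaction -3.97 and -4.74, beside -4.90 without rescaling. For mt-Nd3 in KO_AL the difference was 2.03 ± 0.67 and 2.39 ± 0.67. With a t distribution, 0 of the mRNA and rRNA calls of either kind were kept.

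In liver the WT_AL group had the lowest FPKM in 10 of 10 mRNA entries, and no mRNA or rRNA entry passed the test. Levels of mt-Nd3 were 3010.2 ± 958 in WT_AL, 5180.1 ± 1465 in KO_AL, 7125 ± 2301 in WT_DR and 6739 ± 1884 in KO_DR, and those of mt-Nd5 were 1654 ± 674 in WT_AL, 3848 ± 1004 in KO_AL, 3931 ± 1351 in WT_DR and 3314 ± 1019 in KO_DR. For both complex I entries the 3 other groups lay closer to each other than to WT_AL. The complex IV entry mt-Co2 had 6092 ± 2652 in WT_AL, 12449.6 ± 5045 in KO_AL, 17367 ± 7460.5 in WT_DR and 15112 ± 6109 in KO_DR, and mt-Cytb had 6522 ± 3654 in WT_AL, 11667 ± 4092 in KO_AL, 16496 ± 6906 in WT_DR and 12989.7 ± 4953 in KO_DR. These peaked in WT_DR, and the intervals of all groups overlapped. Medians over the 10 mRNA entries were 0.96 for KO_AL and 1.25 for WT_DR against WT_AL, beside 0.16 and 0.03 over all tested entries, with 0 of 10 called and 0 at an unadjusted p under 0.05 in either comparison. Under DR the mRNA median for genotype was -0.29, and for diet within KO mice it was 0.15, again with 0 called and 0 at an unadjusted p under 0.05.

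The liver rRNAs had another order from the mRNAs, with both peaks in KO_AL. Levels of mt-Rnr1 were 5244 ± 2914 in WT_AL, 17053 ± 5786 in KO_AL, 6147 ± 2438 in WT_DR and 11621 ± 13547 in KO_DR, and those of mt-Rnr2 were 7905 ± 7117 in WT_AL, 18780.4 ± 7570.0 in KO_AL, 5939 ± 3019.9 in WT_DR and 10539 ± 11176 in KO_DR. WT_DR stood at about the WT_AL level for both, although it was the highest group for 8 of 10 mRNA entries. Among tRNA entries, 7 of 13 were called higher in KO_AL than in WT_AL, which made 7 of 25 mitochondrial entries beside 0.316% of the table. In WT_DR 3 tRNA entries of 25 mitochondrial entries tested were called higher than in WT_AL (background 0.236%), in KO_DR against WT_DR 2 of 29 (1 higher and 1 lower; background 0.288%), and in KO_DR against KO_AL 5 of 31 (1 higher and 4 lower; background 0.611%). Red blood cell markers summed to 2681, 13569, 3469 and 12047 FPKM in WT_AL, KO_AL, WT_DR and KO_DR, and were higher in the same 2 groups as the rRNAs. Their part in the result was not tested.

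Skeletal muscle had the highest mRNA levels, and its group differences in mRNA entries were not called. The joined ATP synthase and mt-Co3 entry had FPKM of 132145 ± 143903 in WT_AL, 139946 ± 257777 in KO_AL, 172965 ± 149717 in WT_DR and 90702 ± 128096 in KO_DR. Levels of mt-Co2 were 34351 ± 13291 in WT_AL, 32193 ± 19682 in KO_AL, 37102 ± 10782 in WT_DR and 19187 ± 8945 in KO_DR, and those of mt-Cytb were 40448 ± 14992 in WT_AL, 26583 ± 17746 in KO_AL, 33049.7 ± 10698 in WT_DR and 17524 ± 9471 in KO_DR. KO_DR was the lowest group in 9 of 10 mRNA entries, with every interval overlapping those of the other groups. The complex I entry mt-Nd5 had the same order as mt-Cytb, with 16029 ± 4986 in WT_AL, 6953 ± 3830.2 in KO_AL, 9297 ± 2739.9 in WT_DR and 4964 ± 2409.8 in KO_DR. Another complex I entry, mt-Nd3, had 10893 ± 3584 in WT_AL, 11342 ± 4134 in KO_AL, 13664 ± 3095 in WT_DR and 8023 ± 2446 in KO_DR. WT_AL was the highest group for mt-Nd5, mt-Cytb and mt-Nd2,mt-Tw, and WT_DR for 5 of 10 mRNA entries, mt-Nd3 among them. No mRNA or rRNA entry was called in any of the 4 group comparisons of muscle. The mRNA medians were -0.03 for KO_AL and 0.17 for WT_DR against WT_AL, -0.88 for KO_DR against WT_DR and -0.62 for KO_DR against KO_AL, where 10 of 10 mRNA entries had lower values (-0.75 to -0.42). The first of these medians changed sign with centring on the median of all entries and the second with rescaling to the same sum outside the mitochondrial entries. An unadjusted p under 0.05 was reached by mt-Rnr1 alone among the mRNA and rRNA entries, for WT_DR against WT_AL (-1.19 ± 0.44).

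In muscle the rRNAs were higher in the KO than in the WT group on the same diet by value. Levels of mt-Rnr1 were 6421 ± 1461 in WT_AL, 9187 ± 8394 in KO_AL, 2808 ± 569.6 in WT_DR and 6245 ± 4206 in KO_DR, and those of mt-Rnr2 were 6233 ± 1649 in WT_AL, 17788 ± 23559 in KO_AL, 3577 ± 805 in WT_DR and 11834 ± 13625 in KO_DR. Both were lowest in WT_DR, and their SDs in the KO groups reached 67% to 132% of the level. tRNA entries followed the rRNAs rather than the mRNAs in direction. In KO_AL 14 of 15 tested tRNA entries had a higher FPKM than in WT_AL, with 0 of 27 mitochondrial entries called by the Wald test (background 0.681%) and 1, mt-Te, at an unadjusted p under 0.05. In KO_DR 16 of 17 tRNA entries had higher values than in WT_DR, while 9 of 10 mRNA entries had lower ones, and 8 of 29 mitochondrial entries were called, 7 higher and 1 lower, all tRNA (background 2.23%). In WT_DR 1 of 27 entries was called against WT_AL (mt-Tk, lower; background 1.4%), and 4 of 30 in KO_DR against KO_AL, 1 higher and 3 lower (background 0.5%). Red blood cell markers were 949.8, 11582, 1553 and 20283 FPKM in WT_AL, KO_AL, WT_DR and KO_DR, and were higher in KO than in WT on the same diet, as the rRNA values were. Genes listed as brown fat markers (Ucp1, Cidea, Cox8b, Elovl3 and Cox7a1) summed to 644, 1341, 970 and 1111 in the same order. Most of each sum was Cox8b (577, 1091, 853 and 987), which stood at only 31.7 to 67.1 in WAT. The sum is therefore not a measure of brown fat in muscle. Ucp1 (0.0897, 66.9, 0.230 and 2.05), Cidea (2.16, 79.1, 2.07 and 22.8), Cox8b and Elovl3 had higher values in KO on either diet. Cox7a1 was higher in KO under AL (102 beside 64.6) but lower under DR (97.2 beside 113.9). White fat markers summed to 1301, 1041, 359 and 1280.0, lowest in WT_DR, the group with the raised liver marker sum. The part of these lists in the result was not tested.

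In WAT both rRNAs were called higher in WT_DR than in WT_AL, and the mRNA entries had their highest values there. WT_DR was the highest group in 10 of 10 mRNA entries and in both rRNA entries. Levels of mt-Rnr1 were 1362 ± 331 in WT_AL, 1116 ± 298 in KO_AL, 9116 ± 2522 in WT_DR and 2988 ± 3653 in KO_DR, and those of mt-Rnr2 were 1803 ± 569 in WT_AL, 1489 ± 434 in KO_AL, 14210.5 ± 3497 in WT_DR and 3850.1 ± 7871 in KO_DR. For both rRNAs the interval of WT_DR lay above those of WT_AL and KO_AL. The differences from WT_AL were called (mt-Rnr1 2.74 ± 0.53, mt-Rnr2 2.98 ± 0.58), as was mt-Tp, which made 3 of 19 tested entries, all higher, beside 0.57% over the table. Complex I entries came next. Levels of mt-Nd5 were 2330.2 ± 949 in WT_AL, 2687 ± 1407 in KO_AL, 11121 ± 3447 in WT_DR and 2797 ± 3846 in KO_DR, and the joined mt-Nd4,mt-Nd4l entry had 11891 ± 8392 in WT_AL, 15893 ± 16129.9 in KO_AL, 48789 ± 28394 in WT_DR and 17311 ± 78430.4 in KO_DR. For mt-Nd3 they were 1961 ± 409.6 in WT_AL, 2579 ± 702 in KO_AL, 5828 ± 2678 in WT_DR and 4299 ± 3228 in KO_DR. None of the mRNA entries was called (mRNA median 1.48, all entries -0.17), and 2 of 10, mt-Nd3 and mt-Nd5, had an unadjusted p under 0.05.

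Levels of mt-Co2 in WAT were 8218 ± 2952 in WT_AL, 10042 ± 5028 in KO_AL, 21375 ± 8665 in WT_DR and 13096 ± 24400.0 in KO_DR, and those of mt-Cytb were 10052 ± 3691 in WT_AL, 11906 ± 7077 in KO_AL, 24068 ± 8598 in WT_DR and 12155 ± 36165 in KO_DR. The KO_DR values had SDs of up to 2042% of the FPKM, so comparisons with that group were uninformative for 8 of the 10 mRNA entries, whose SD exceeded the level. By contrast mt-Co1 was nearly level at 13532 ± 12691 in WT_AL, 12562 ± 12598 in KO_AL, 15451 ± 10491 in WT_DR and 15305 ± 7932 in KO_DR. Between KO_AL and WT_AL the mRNA median was 0.27 and 1 of 16 entries was called, mt-Ta, higher (background 1.29%). KO_DR differed from WT_DR in 2 of 24 entries, 1 tRNA higher and 1 lower (background 0.283%), and from KO_AL in 3 of 20 entries, 2 tRNAs higher and 1 lower (background 0.707%), with 0 of 12 mRNA and rRNA entries called or at an unadjusted p under 0.05 in either. White fat markers summed to 19000.1, 12873, 20643 and 15925 FPKM in WT_AL, KO_AL, WT_DR and KO_DR. Brown fat markers (Ucp1, Cidea, Cox8b, Elovl3 and Cox7a1), of cells rich in mitochondria, summed to 50.6, 91.8, 139 and 126. Of these 5, Ucp1 and Cidea (62.5 in WT_DR beside 32.1 in KO_DR) were highest in WT_DR, and Cox8b, Elovl3 and Cox7a1 in KO_DR. Red blood cell markers summed to 6863, 4297, 12269 and 21030.4. The part of these lists in the WT_DR result was not tested, and with a t distribution neither rRNA was called.

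The minus strand carries only mt-Nd6, a complex I subunit, and 8 of the 19 tRNA entries. Levels of mt-Nd6 were the lowest of the mRNA entries in all 16 groups, from 18.1 FPKM in WAT WT_AL to 236 in liver KO_DR, with SDs above the level in each group. The mt-Nd5 entry, which ends against it on the other strand, was 7.86 times as high in brain WT_AL and 421 times in muscle WT_AL. As strand-specific counting is not known, the values of these minus-strand entries may include reads of plus-strand RNA. Directly beside mt-Nd6 on the minus strand lies mt-Te, the glutamate tRNA (MT:14071-14139), shown here in its own 5′ to 3′ sense.
mt-Te: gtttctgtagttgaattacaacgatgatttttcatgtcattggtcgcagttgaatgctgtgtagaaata
Levels of mt-Te in liver were 1140.2 ± 1209.6 in WT_AL, 11134 ± 3638 in KO_AL, 858 ± 538 in WT_DR and 8215 ± 4296 in KO_DR, and in muscle 3667 ± 2256 in WT_AL, 18486 ± 6309 in KO_AL, 1305 ± 906 in WT_DR and 11268 ± 4739.8 in KO_DR. Both KO groups were above both WT groups in each of these tissues, without passing the test. Another minus-strand tRNA, mt-Ts1 (serine), was listed at 0 in all 8 WT groups and in both KO groups of WAT, and had FPKM of 222 and 80.2 in brain, 449 and 218 in liver and 545 and 336 in muscle of KO_AL and KO_DR mice. The SDs of these KO values were 71% to 322% of the FPKM in brain, 232% to 13845% in liver and 146% to 515% in muscle. No fold is given against a group listed at 0.

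The tRNA entries spanned a wide range, from 0 in 48 of their 304 group values to 430588 FPKM. The 3 highest by mean were mt-Tm, mt-Tl2,mt-Ts2 and mt-Tl1. Levels of mt-Tm in brain were 11011 ± 6202 in WT_AL, 78576 ± 30285 in KO_AL, 96842 ± 24961 in WT_DR and 27851 ± 8412 in KO_DR, and in liver they were 16054 ± 7939 in WT_AL, 117036 ± 29518 in KO_AL, 39824 ± 10380.1 in WT_DR and 74643 ± 27568 in KO_DR. In muscle mt-Tm was at 150519 ± 49507 in WT_AL, 430588 ± 200062 in KO_AL, 76237 ± 18410.4 in WT_DR and 244574 ± 93099.5 in KO_DR, and in WAT at 1258 ± 889 in WT_AL, 2524 ± 1360.2 in KO_AL, 11244 ± 7777 in WT_DR and 5490.3 ± 3748 in KO_DR. KO_AL was its highest group in liver and muscle and WT_DR in brain and WAT. Alone it made up 22.1% of the FPKM sum of muscle KO_AL, and its level was 17.8 times that of mt-Co2 in brain KO_DR but 0.153 times in WAT WT_AL. FPKM divides by length, and a short gene gains most from that division. Poly A selection need not recover tRNA and mRNA alike. A tRNA value also does not show whether its reads came from the cut tRNA or from uncut precursor RNA, so it describes the entry. The joined mt-Tl2,mt-Ts2 entry had 833 ± 8.04 in WT_AL, 9323 ± 5235 in KO_AL, 12943 ± 4509 in WT_DR and 3294 ± 2229 in KO_DR in brain and 23897 ± 10438 in WT_AL, 32928 ± 12001 in KO_AL, 10409.9 ± 4431 in WT_DR and 63474 ± 23928 in KO_DR in muscle. The leucine tRNA mt-Tl1, which follows mt-Rnr2 directly, was the one tRNA entry with higher levels in WAT than in brain in every group, at 4865 ± 2042 in WT_AL, 4498 ± 1925 in KO_AL, 9533 ± 6625 in WT_DR and 5716 ± 3143 in KO_DR in WAT and 810.2 ± 805 in WT_AL, 1709 ± 1110.5 in KO_AL, 2475 ± 1031 in WT_DR and 539 ± 432 in KO_DR in brain. Between tissues of WT_AL mice mt-Tm was called in 5 of 6 pairs, with muscle above brain (3.77 ± 0.94), liver (3.23 ± 0.86) and WAT (6.90 ± 1.12), and WAT below brain (-3.13 ± 1.30) and liver (-3.67 ± 1.24). The valine tRNA mt-Tv was called in 1 pair, liver below brain (-0.25 ± 0.02), and in no group comparison. The glutamine tRNA mt-Tq was called in no comparison, and its SDs exceeded the level in 14 of the 15 groups with a value above 0.

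**Figure D3:**
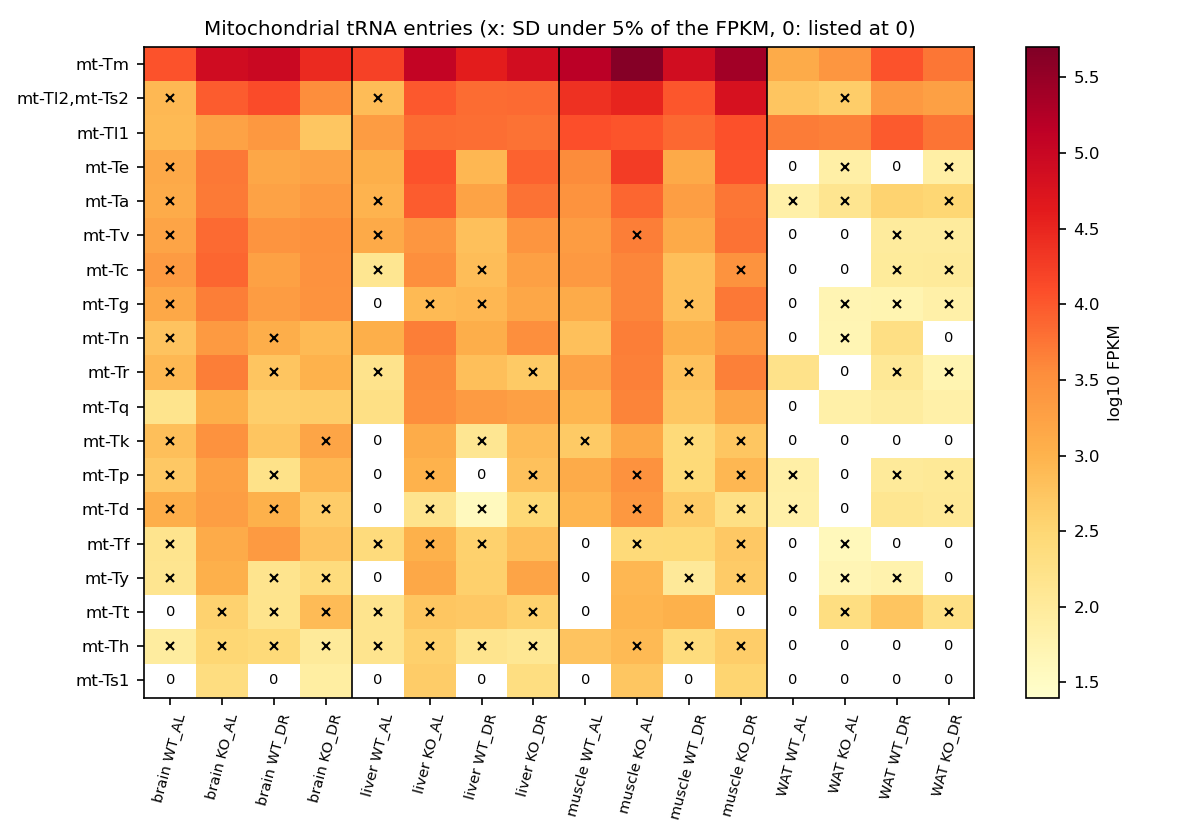
FPKM (log colour scale) of the 19 tRNA entries in the 16 groups, with 0 printed for values listed at 0 and a cross on values whose SD is under 5% of the FPKM. WAT holds most of the values at 0, and mt-Tm is the highest entry in brain, liver and muscle.

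Most tRNA tests rested on intervals that were very narrow for 2 or 3 libraries. An SD under 5% of the FPKM was found in 99 of the 256 tRNA values above 0, or 38.7%, in 0 of 192 mRNA and rRNA values, and in 0.199% of the values of at least 1 FPKM over the table. Of the 52 tRNA calls in the 16 group comparisons, 51 had such an interval in a compared group. With these entries left out, 1 call remained, mt-Tl2,mt-Ts2 in KO_DR against WT_DR muscle (63474 beside 10409.9, 2.61 ± 0.82), and mt-Tm in brain was the only tRNA entry called for the interaction. The values of the called entries are given below as the table lists them, and their small SEs should be read with that in mind.

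In brain, mt-Th had FPKM of 87.8 in WT_AL, 318 in KO_AL, 276 in WT_DR and 105 in KO_DR, the same order as the mRNAs. It was called in each brain comparison (1.86 ± 0.04 for KO_AL and 1.65 ± 0.05 for WT_DR against WT_AL, -1.40 ± 0.03 and -1.61 ± 0.03 for KO_DR against WT_DR and KO_AL). The phenylalanine tRNA mt-Tf, at the start of the plus-strand transcript, had 146 in WT_AL, 1268 in KO_AL, 2282 in WT_DR and 593 in KO_DR and was called for WT_DR (3.96 ± 0.72), as were the joined mt-Tl2,mt-Ts2 entry (3.96 ± 0.50) and mt-Tn, the asparagine tRNA (1.00 ± 0.03). Lower in WT_DR than in WT_AL were mt-Td (aspartate, -0.15 ± 0.02), mt-Tr (arginine, -0.54 ± 0.02) and mt-Tp (proline, -1.55 ± 0.03). The called tRNA entries of brain thus lay in both directions in WT_DR and in 1 direction in KO_AL, but each of these calls rested on a narrow interval. With narrow intervals left out, 3 tRNA entries were tested for WT_DR against WT_AL, 3 of them higher by value and 0 called. The other brain calls under DR were mt-Td (-1.26), mt-Tt (threonine, 2.39) and mt-Ty (tyrosine, 0.73) for genotype and mt-Tt (1.11) for diet in KO mice.

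In liver, KO_AL exceeded WT_AL in mt-Tc (cysteine, 3211 beside 134 FPKM, 4.58 ± 0.74), mt-Tr (3564 beside 155, 4.52 ± 0.80), mt-Tl2,mt-Ts2 (3.71 ± 0.65) and mt-Ta (alanine, 9308 beside 969, 3.26 ± 0.60). It also exceeded WT_AL in mt-Tf (2.02 ± 0.04), mt-Tt (1.93 ± 0.03) and mt-Th (1.46 ± 0.03). The WT_AL value of each of these had a narrow interval. WT_DR exceeded WT_AL in mt-Tl2,mt-Ts2 (3.18 ± 0.59), mt-Tc (2.39 ± 0.04) and mt-Tf (0.59 ± 0.04). For KO_DR against WT_DR the calls were mt-Td (2.94) and mt-Th (-0.23). Against KO_AL, KO_DR was higher in mt-Td (1.00) and lower in mt-Tr (-2.88), mt-Th (-1.69), mt-Tp (-0.70) and mt-Tt (-0.51).

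In muscle, KO_DR exceeded WT_DR in mt-Tg (glycine, 5321 beside 690.2 FPKM, 2.95 ± 0.67), mt-Tr (2.85 ± 0.80), mt-Ty (2.13 ± 0.03), mt-Tp (1.59 ± 0.03), mt-Tk (lysine, 0.99 ± 0.02) and mt-Th (0.83 ± 0.04), beside the joined mt-Tl2,mt-Ts2 entry, and lay below it in mt-Td (-1.26 ± 0.03). The neighbours of mt-Nd3 on the chromosome are mt-Tg and mt-Tr, and mt-Nd3 itself was not called there (-0.77 ± 0.55). For DR in wild-type muscle the single call was mt-Tk (-0.83 ± 0.02). For DR in KO muscle they were mt-Tf (0.90), mt-Td (-3.66), mt-Tp (-1.82) and mt-Th (-0.88). In WAT the called entries were low, at 318 FPKM or less (the KO_DR value of mt-Ta). They were mt-Ta for KO_AL against WT_AL (0.99) and for DR in KO mice (1.19), mt-Tp for DR in WT mice (0.51), mt-Tg (0.38) and mt-Tr (-1.13) for genotype under DR, and mt-Tg (0.47) and mt-Tt (-0.18) for DR in KO mice.

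Mitochondrial entries took up a large part of the expression table. Summed over all 31, they made 7.88% ± 3.92 percentage points (SD) of the FPKM sum in brain WT_AL, 28.2% ± 18.1 in KO_AL, 33.6% ± 17.8 in WT_DR and 12.1% ± 3.18 in KO_DR. In liver the shares were 9.89% ± 9.82, 19.3% ± 14.5, 19.7% ± 14.6 and 16.8% ± 18.96 in the same order. Those of WAT were 14.7% ± 7.73, 18.6% ± 15.97, 27.2% ± 12.4 and 18.2% ± 99. Muscle had 39.2% ± 19.6, 47.5% ± 32.7, 32.8% ± 14.6 and 34.9% ± 16.1. By value it was the highest tissue except in WT_DR, where brain was higher. Many of these SDs are wide beside the shares, so the order of the tissues is by value only. Which entries made up the share also differed between tissues by value. The mRNA entries alone held 25.2% ± 18.5 in muscle WT_AL and 26.1% ± 14.2 in WT_DR. In muscle KO_DR they held 13.4% ± 14.6, and the tRNA entries 20.5% ± 6.8. In brain the tRNA share exceeded the mRNA share in all 4 groups, and in WAT it was between 1.02% and 2.40%. FPKM are relative to the library, so a level is read beside these shares.

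**Figure D4:**
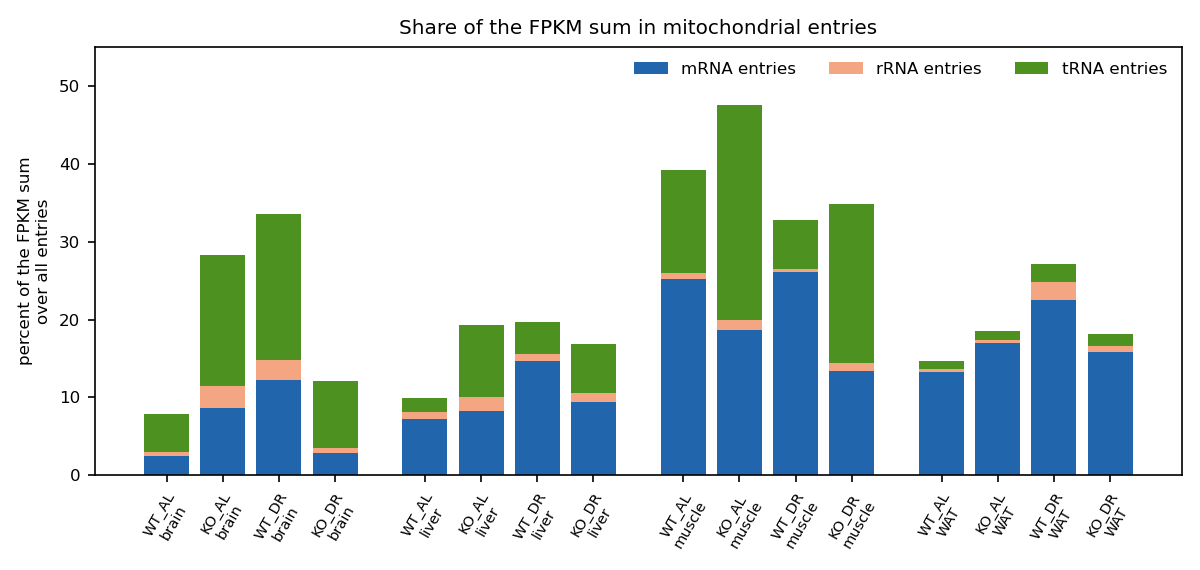
Percent of the FPKM sum of each group (vertical axis from 0) held by mitochondrial mRNA, rRNA and tRNA entries, stacked, in the 4 groups of each tissue. By value muscle KO_AL has the highest share, 47.5% ± 32.7 percentage points (SD), and brain WT_AL the lowest, 7.88% ± 3.92.

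The nuclear genes that complete the respiratory chain had smaller differences in brain by value. Of 25 nuclear subunits of complexes I, III, IV and V, 0 were called by the Wald test in any of the 16 group comparisons, in which 0.203% to 2.23% of all tested entries were called, so the count does not set these genes apart. Their median log2 difference in brain was 0.39 for KO_AL and -0.10 for WT_DR against WT_AL, 0.08 for KO_DR against WT_DR and -0.23 for KO_DR against KO_AL, beside 2.54, 2.77, -2.36 and -2.20 for the mitochondrial mRNA entries. The median FPKM of the mRNA entries was accordingly 13.8 times that of the nuclear subunits in brain WT_AL, 54.3 times in KO_AL, 76.7 times in WT_DR and 14.4 times in KO_DR. In WAT the nuclear subunits had a median of 0.69 for WT_DR against WT_AL, with 24 of 25 higher by value, and 0.66 for KO_DR against KO_AL, with 25 of 25 higher. The ratio there was 80.1, 102, 103 and 60.1 in WT_AL, KO_AL, WT_DR and KO_DR. In muscle it was 97.2, 80.8, 84.6 and 40.7, and in liver 32.0, 32.3, 63.0 and 40.2. The 4 subunits of complex II, which has no mitochondrially encoded part, also gave 0 calls, which at that background says nothing particular to them. Their medians in brain were 0.17 and -0.19 for KO_AL and WT_DR against WT_AL.

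**Figure D5:**
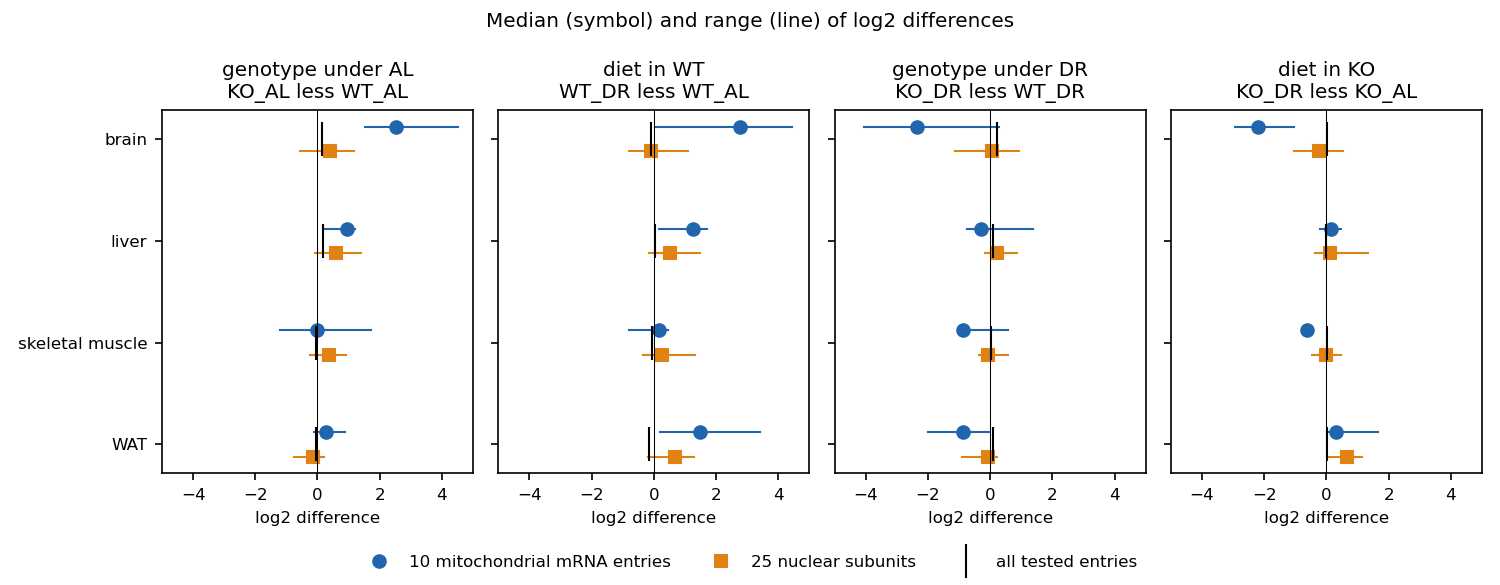
Median (symbol) and range (line) of log2 differences for the 10 mitochondrial mRNA entries and the 25 nuclear subunits in 4 tissues and 4 comparisons, with a black tick at the median of all tested entries. In brain the mitochondrial medians lie between -2.36 and 2.77, and the nuclear ones between -0.23 and 0.39.

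Of 49 nuclear regulators of mitochondrial DNA expression, 1 was called in the 16 group comparisons, which is no more than the background of 0.203% to 2.23% per comparison. That was Yy1, a transcription factor with many nuclear targets, in muscle (30.2 ± 7.17 FPKM in WT_AL, 9.37 ± 2.09 in WT_DR, -1.69 ± 0.47). Tfam, which binds and packages mitochondrial DNA and starts its transcription, was at 4.48 ± 1.62 in WT_AL, 5.07 ± 2.26 in KO_AL, 5.66 ± 2.18 in WT_DR and 6.81 ± 2.08 in KO_DR in brain. Polrmt, the mitochondrial RNA polymerase, was at 6.50 ± 3.02 in WT_AL, 8.83 ± 3.38 in KO_AL, 5.14 ± 1.35 in WT_DR and 11.1 ± 3.26 in KO_DR. Both had their highest value in KO_DR, and any part of theirs in the brain result was not tested. Lrpprc, which stabilises mitochondrial mRNAs, was at 10.0 ± 6.14 in WT_AL, 6.86 ± 4.10 in KO_AL, 4.62 ± 1.55 in WT_DR and 6.15 ± 2.33 in KO_DR, and Ppargc1a, a coactivator of mitochondrial biogenesis, at 5.61 ± 2.21 in WT_AL, 5.39 ± 1.79 in KO_AL, 4.41 ± 1.17 in WT_DR and 6.77 ± 1.64 in KO_DR. None of these 4 regulators was called in a brain comparison. In WAT, where WT_DR had the highest mitochondrial mRNA and rRNA values, Tfam was at 8.26 ± 3.94 in WT_AL, 8.37 ± 5.12 in KO_AL, 8.63 ± 6.98 in WT_DR and 8.17 ± 5.68 in KO_DR and Ppargc1a at 0.283 ± 0.327 in WT_AL, 0.645 ± 0.542 in KO_AL, 0.669 ± 0.546 in WT_DR and 0.565 ± 0.506 in KO_DR. Tfam in muscle was 16.3 ± 10.9 in WT_AL, 17.3 ± 9.50 in KO_AL, 23.8 ± 10.8 in WT_DR and 15.1 ± 8.38 in KO_DR and in liver 17.1 ± 7.06 in WT_AL, 19.4 ± 7.60 in KO_AL, 24.0 ± 12.8 in WT_DR and 22.1 ± 10.7 in KO_DR, with the highest value in WT_DR in both tissues and none called.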

How the data were processed

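RNA from 43 samples (brain, liver, skeletal muscle and WAT of WT and KO mice under AL or DR) was enriched with Dynabeads for poly A tails, built into Ion Total RNA-Seq libraries and sequenced on an Ion Proton. As the submitters' processing notes and the study's methods state, the authors trimmed reads with cutadapt 1.5, aligned them to GRCm38 and ran Cuffdiff 2.2.1 with multi-read correction and geometric-mean normalisation. Values were deposited as FPKM, 1 per group, with 95% bounds and a status. Multi-mapped reads were shared out, so genes with nuclear copies of mitochondrial sequence are uncertain. Library values were not used here.

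From the table, SD was computed as (upper bound less FPKM) divided by 2, and SE by the delta method. A two-sided Wald test on log2 ratios (Python 3.11.15, numpy 2.4.6, pandas 2.3.3, scipy 1.17.1) was run over all entries whose status was OK and whose FPKM exceeded 0 in each compared group, and reached 1 in at least 1 of them, adjusted by Benjamini-Hochberg within tissue and comparison at FDR 10%. A check on simulated data kept each SD between 5% of the FPKM and the FPKM itself, and treated it as known. It therefore does not cover the narrow tRNA intervals, SDs above the level, or error in the SDs themselves. Tissues were compared in WT_AL. Sequences and coordinates were read from the GENCODE vM21 transcripts and annotation of GRCm38. Alternatives covered the FDR, the SE, the reference distribution, pseudocounts, filters, scaling and joined entries. All mitochondrial entries were named. tRNA values were printed for entries called between groups and the 3 highest by mean, and for mt-Te and mt-Ts1, chosen after their values were seen. Regulators were named if they were Tfam, Polrmt, Lrpprc or Ppargc1a, or called. Members and lists were chosen with earlier results of these data known. Marker lists for brown fat, white fat, liver, muscle, brain and red blood cells were summed per group.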

Additional observations from a re-analysis of the deposited data

Results flagged for a closer look

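The genotype difference in brain under DR differed from that under AL by the interaction test for 9 mitochondrial entries. The values, as log2 differences ± SE, were -6.79 ± 0.88 for mt-Nd3, -6.37 ± 1.05 for mt-Rnr1, -5.50 ± 1.25 for mt-Rnr2, -5.46 ± 1.36 for mt-Tl2,mt-Ts2, -5.33 ± 1.24 for mt-Nd5, -4.63 ± 1.14 for mt-Tm, -4.46 ± 1.14 for mt-Cytb, -4.45 ± 1.09 for mt-Co2 and -3.26 ± 0.05 for mt-Th. In each of the 9 the KO_AL value lay above WT_AL and the KO_DR value below WT_DR. In liver the same test called mt-Th, at -1.69 ± 0.06, whose intervals were narrow.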

How the results depend on the processing

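No paired analysis was possible because the table holds 1 value per group and no library values, and for the same reason leaving out single libraries was not run. The SE followed from the deposited interval and not from library values, read depth is unknown, and the tRNA calls rested on narrow intervals. Moves of the medians of mRNA entries were judged against the median SE of the single entries, which is not an SE of the median. It is wide, at 1.98 for the brain interaction, whose median moved from -4.90 to -3.97 and still counted as unchanged. The 20 medians were recomputed under 6 alternatives, and all moves were smaller than that SE, which is a weak criterion. In 4 of these 120 values the sign changed, for KO_AL against WT_AL in muscle with centring (-0.026 to 0.020), for WT_DR against WT_AL in muscle with the same sum outside mitochondrial entries (0.17 to -0.056), and for KO_DR against KO_AL in WAT with the same FPKM sum (0.32 to -0.066) or the same sum outside mitochondrial entries (-0.073). Counts of called entries are given as main count to alternative count, with the cause of each change not tested.

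With a t distribution the mRNA counts fell to 0 in all brain comparisons (from 2, 1, 1 and 2 for KO_AL against WT_AL, WT_DR against WT_AL, KO_DR against WT_DR and KO_DR against KO_AL) and in all tissue pairs (from 8, 4, 4, 6 and 5), and the rRNA counts to 0 (brain from 2, 1, 1 and 1, WAT WT_DR from 2). The tRNA counts fell to 0 in brain KO_AL and WT_DR, WAT KO_AL, WT_DR and KO_DR against WT_DR, and liver and muscle WT_DR, from 7 to 3 in liver KO_AL, from 2 to 1 in liver and 8 to 5 in muscle for genotype under DR, and from 3 to 1 in WAT for diet in KO. The brain interaction count fell from 9 to 1 and the regulator count from 1 to 0. With the smaller SE (SD divided by the root of the number of libraries), brain mRNA counts were 5, 4, 5 and 5, brain rRNA counts 2 in the 3 comparisons that had 1, brain tRNA counts 13 (KO_AL), 8 (genotype under DR) and 5 (diet in KO), and the interaction counts 14 in brain and 4 in liver. Other counts became 2 (tRNA, muscle KO_AL), 1 (rRNA, muscle WT_DR), 2 (mRNA and tRNA, WAT WT_DR) and 8 (mRNA, liver against brain). Regulator counts became 1, 2, 6 and 2 for the comparisons in the order above and 1 for the interaction, and those of the nuclear subunits 1, 1, 4 and 3.

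Leaving out entries with an SD under 5% of the FPKM, an alternative chosen after seeing the data, left 0 tRNA calls in 15 of the 16 group comparisons, the exception being muscle KO_DR against WT_DR (1), with 1 tRNA call for the interaction in brain and 0 in liver. Rescaling to the same FPKM sum, or to the same sum outside mitochondrial entries, gave 0 mRNA and 0 rRNA calls in brain KO_AL against WT_AL and 2 for liver against brain, and 2 for muscle against WAT. The first also gave 0 rRNA calls in brain for diet in KO, 1 tRNA call in brain KO_AL, 0 in WAT WT_DR, 5 in WAT for genotype under DR, 5 for muscle against brain and 2 regulators under DR. The second gave 2 mRNA calls in brain for genotype under DR, 1 rRNA call in muscle WT_DR and 0 tRNA calls in WAT WT_DR. Requiring intervals that do not overlap gave 0 rRNA and 1 tRNA calls in brain KO_AL, 0 rRNA calls in brain for diet in KO, 4, 1 and 2 mRNA calls for muscle against brain, liver and WAT, 2 for liver against brain, and 1 regulator under DR.

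A pseudocount of 0.1 or 1 FPKM, which admits values listed at 0, gave tRNA counts of 13 in liver KO_AL, 3 in muscle KO_AL, 10 or 9 in WAT KO_AL, 7 in liver and WAT WT_DR, 4 in muscle WT_DR, 4 in liver (0.1 only) and 5 in WAT for genotype under DR, and 11 in WAT for diet in KO. It gave 3 mRNA calls for genotype under DR and 2 rRNA calls for diet in KO in brain, interaction counts of 7 in liver, 3 in muscle and 8 or 7 in WAT, and 1 regulator under DR. An FPKM minimum of 5, and centring on the median, each gave 2 mRNA calls in brain for genotype under DR, and centring and an FDR of 5% each 1 rRNA call in brain KO_AL. Leaving out joined entries gave 1 tRNA call in brain KO_AL and 5 mRNA calls for muscle against brain. A minimum of 2-fold gave tRNA counts of 0 in WAT KO_AL, WAT WT_DR and muscle WT_DR, 1 in liver and WAT for genotype under DR, and 3, 2 and 1 in liver, muscle and WAT for diet in KO.

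With protein-coding entries only, the share of the FPKM sum was 2.51%, 8.69%, 12.2% and 2.86% in brain WT_AL, KO_AL, WT_DR and KO_DR and 13.4% in muscle KO_DR. The difference of Irs1 reversed with groups rescaled to the same FPKM sum, to -0.21 in brain, -0.15 in liver and -0.18 in muscle under AL and -0.016 in muscle under DR. In brain under DR it was not called at 1.35 (FDR of 5%, no filter, t distribution), 1.13 (centred) or 1.17 (same sum outside mitochondrial entries), and with the smaller SE it was called in WAT, at 1.12 under AL and -1.35 under DR. The mt-Tp difference in WAT WT_DR reversed to -0.074 with groups rescaled to the same FPKM sum.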
